A study of Mus musculus with 8 samples.

Results

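LIM-homeobox genes encode transcription factors that carry a pair of LIM domains and a DNA-binding homeodomain, and 10 of them (Isl1, Isl2, Lhx1, Lhx2, Lhx3, Lhx4, Lhx5, Lhx6, Lhx8 and Lhx9) were followed by name in RNA of mouse embryonic forebrain and spinal cord. They were 10 of 36317 distinct gene names in the table of expression values. Each had 1 row. They were taken by name with no cut on their level, although earlier results of these data were known when the set was drawn up. By name, 3 were taken as forebrain members (Lhx2, Lhx6 and Lhx8) and the other 7 as spinal and motor members.

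The study measured total RNA in 8 libraries, in 4 groups of 2: wild-type (wt) forebrain at embryonic day (E) 13.5, wt spinal cord at E13.5, wt forebrain at E15.5, and forebrain at E15.5 from embryos with a Sox1-Cre-dependent knockout of EED (EED-cKO). Eed encodes a subunit of Polycomb repressive complex 2, which places the repressive methyl mark on lysine 27 of histone H3. Sox1 is expressed in the early neural epithelium, so Cre driven from it acts in neural progenitors and their descendants, while blood, vessel and meningeal cells in the dissected tissue do not descend from them. Whether the wt embryos carried Cre or a floxed allele, whether embryos were pooled, and whether the 2 libraries of a group came from separate embryos are not given in the sources used here, so a p-value below measures only the spread between these libraries, which may be technical.

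LIM-homeodomain proteins work in complexes with the adaptor LDB1, which binds their LIM domains and can bridge several of them on DNA. In the spinal cord the combination present in a cell is known to set its type: Isl1, Isl2, Lhx3 and Lhx4 in motor neurons, Lhx3 and Lhx4 also in V2 interneurons, and Lhx1, Lhx5, Lhx2, Lhx9 and Lmx1b in sets of dorsal or ventral interneurons. In the forebrain Lhx2 patterns the cortex and eye, Lhx6 and Lhx8 specify GABAergic and cholinergic neurons born in the medial ganglionic eminence, and Isl1 marks striatal progeny of the lateral ganglionic eminence.

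Levels are RPKM, reads per kilobase of gene scaled to mapped reads, so levels of different genes can be compared per length. Differences are on the log2(RPKM + 1) scale, which understates the change of low genes, and ratios are of mean RPKM. A gene was called when its limma p, adjusted by Benjamini-Hochberg over the 17022 tested genes, was under 0.05. The table holds no counts, so the depth behind each value is unknown. In bulk tissue, fewer cells that express a gene and less RNA per cell cannot be told apart.

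The labels were checked first. Eed was at 25.8 and 27.9 RPKM in wt and at 10 and 10.6 in EED-cKO forebrain at E15.5, 2.61-fold lower (log2 difference -1.30 ± 0.085 SE, adjusted p = 8.65e-05). The summed level of 8 forebrain markers was 500.1 to 523.8 RPKM in E13.5 forebrain, 48.3 to 59.4 in spinal cord, 778.9 to 814.5 in E15.5 wt forebrain and 143.4 to 171.6 in EED-cKO. Neurod6 alone gave 47.5 and 58.8 RPKM in spinal cord, 349.5 and 399.3 in E15.5 wt forebrain and 14.6 and 12.8 in EED-cKO. In EED-cKO 6 of the 8 were lower, Nkx2-1 was higher (19.4 and 19.2 RPKM in wt, 38.3 and 29.4 in EED-cKO) and Emx2 was not called. The 5 Hox genes used as spinal cord markers summed to 805.5 to 990.8 RPKM in spinal cord, at most 0.2 in E13.5 forebrain, 0 in E15.5 wt forebrain and 35.9 to 39 in EED-cKO. All RPKM values of a library added up to between 378294 and 397319.5 at E13.5 and to between 761647 and 843296.5 at E15.5. Levels are therefore compared within an age, and the comparison of ages is given last.

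**Figure D1:**
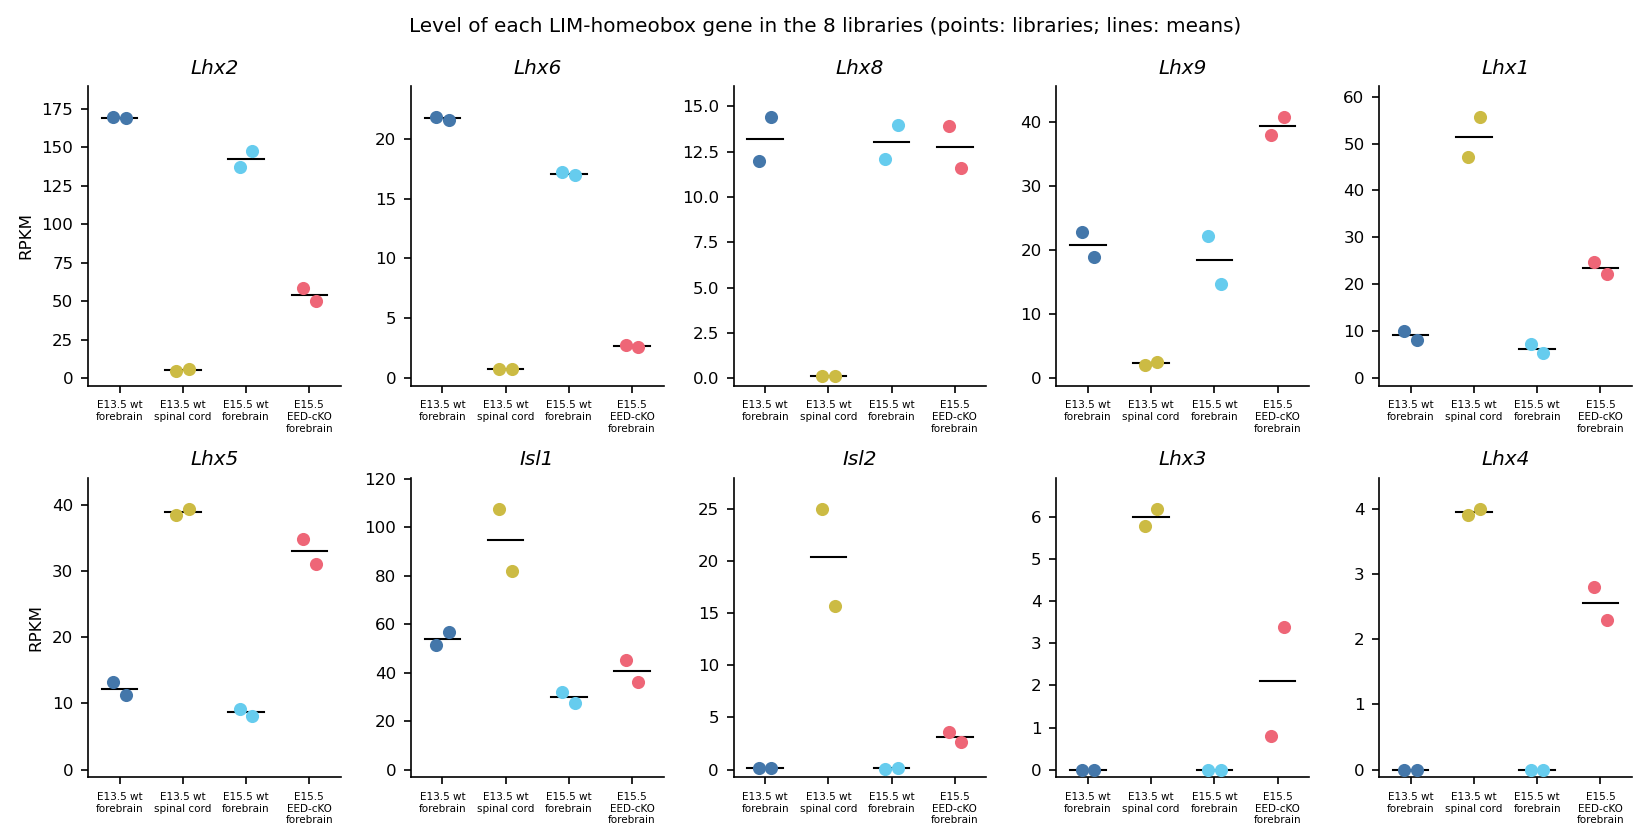
RPKM (y axis, linear, a separate scale for each gene) of the 10 LIM-homeobox genes in the 4 groups (x axis), with 1 point per library and a line at the mean. Lhx2 and Lhx6 are lower in EED-cKO than in wt forebrain at E15.5, Lhx8 overlaps, and Isl2, Lhx3 and Lhx4, at 0 to 0.2 RPKM in every wt forebrain library, reach 0.8 to 3.6 RPKM in EED-cKO.

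In E15.5 forebrain, 6 of the 10 members rose in EED-cKO (Isl2, Lhx1, Lhx3, Lhx4, Lhx5 and Lhx9), 2 fell (Lhx2 and Lhx6) and 2 were not called (Isl1 and Lhx8). Of all 17022 tested genes, 46.9% were called in this comparison, 30.2% higher and 16.7% lower. The groups did not overlap for 7 members that were higher and 2 that were lower in EED-cKO, against 70.3% of all genes (42.6% higher and 27.6% lower). The median log2 difference was -1.38 for the forebrain members, 1.76 for the spinal and motor members and 0.08 for all genes. The median of the spinal and motor members was also 1.76 without Lhx3 and Lhx4, which are listed at 0 in wt forebrain. Of all called genes, 64.5% were higher, a share that was 48.8% under median-ratio scaling and 45.1% under quantile normalization. The directions and calls of the 8 called members were the same under both scalings.

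Lhx2, on chromosome 2 at 38339271 to 38369737 (positions here and below are RefSeq gene bounds on GRCm38.p6), is needed for cortical identity and for eye formation. It was at 137.1 and 148.0 RPKM in E15.5 wt forebrain and at 58.7 and 49.9 in EED-cKO. It was the most abundant of the 10 genes in both groups, and every wt library lay above every EED-cKO library. The mean fell from 143 to 54.3 RPKM, 2.63-fold (log2 difference -1.38 ± 0.11 SE, adjusted p = 0.000202).

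Lhx6, on chromosome 2 at 36081950 to 36105992, is required for the migration and identity of cortical interneurons from the medial ganglionic eminence. It was at 17.2 and 17.0 RPKM in wt and at 2.8 and 2.6 in EED-cKO. The libraries of each group differed by 0.2 RPKM and the groups stood far apart. Lhx6 fell 6.33-fold, the largest decrease among the 10 genes (log2 difference -2.29 ± 0.076 SE, adjusted p = 6.99e-06).

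Lhx8, on chromosome 3 at 154306288 to 154330560, is expressed in the same eminence and is needed for forebrain cholinergic neurons. It was at 12.1 and 14.0 RPKM in wt and at 13.9 and 11.6 in EED-cKO, and the groups overlapped. Its log2 difference was -0.03 ± 0.13 SE with a 95% confidence interval of -0.34 to 0.27 (adjusted p = 0.86), an interval that does not reach the decreases measured for Lhx2 and Lhx6. The ratio of Lhx6 to Lhx8 RPKM was 1.42 and 1.21 in the wt libraries and 0.201 and 0.224 in the EED-cKO libraries. In E13.5 wt forebrain the ratio was 1.82 and 1.5. Both EED-cKO ratios lay below all 4 wt forebrain ratios. The exact two-sided permutation p for EED-cKO against E15.5 wt was 0.333, the smallest that 2 libraries against 2 can give.

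The starts of the 2 members that fell are shown for their CG dinucleotides, since promoters rich in them are common Polycomb targets in vertebrates. These are the 250 bases before a RefSeq transcript start on GRCm38.p6, read 5′ to 3′ on the gene's own strand, with CG in capitals. The Lhx2 window is chr2:38339031-38339280 (plus strand) and the Lhx6 window is chr2:36105409-36105658 (minus strand). Neither overlaps an exon in the GENCODE M21 annotation.

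Lhx2: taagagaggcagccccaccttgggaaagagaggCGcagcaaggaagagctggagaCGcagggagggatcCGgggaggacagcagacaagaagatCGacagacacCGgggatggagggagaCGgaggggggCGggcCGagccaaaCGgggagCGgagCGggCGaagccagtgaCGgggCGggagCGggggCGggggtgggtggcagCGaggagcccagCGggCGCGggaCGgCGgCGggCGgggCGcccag

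Lhx6: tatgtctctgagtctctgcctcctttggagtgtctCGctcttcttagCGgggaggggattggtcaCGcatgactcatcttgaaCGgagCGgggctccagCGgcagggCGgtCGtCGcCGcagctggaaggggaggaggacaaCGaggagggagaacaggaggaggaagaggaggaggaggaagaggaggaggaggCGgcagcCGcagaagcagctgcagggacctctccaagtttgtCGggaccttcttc

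The Lhx2 window shown holds 25 CG and the Lhx6 window shown 14. RefSeq gives another Lhx2 window with 24 CG and 2 other Lhx6 windows with 17 and 7, so the Lhx6 starts lie on both sides of the median below. Over the 21263 windows of protein-coding genes the median was 10, with quartiles of 3 and 19. A count at least as high was found in 13.8% of those windows for the Lhx2 window shown and in 39.5% for that of Lhx6.

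Isl1, on chromosome 13 at 116298270 to 116309688, acts in spinal motor neurons, sensory ganglia and the developing striatum. It was at 32.0 and 27.5 RPKM in E15.5 wt forebrain and at 45.2 and 36.0 in EED-cKO. Both EED-cKO libraries lay above both wt libraries, but the difference did not pass the test (log2 difference 0.43 ± 0.16 SE, 95% confidence interval 0.06 to 0.81, adjusted p = 0.0604). The adjusted p ran from 0.0363 to 0.313 over the alternatives. It was under 0.05 with a replicate block (0.0363), with genes of unmoved rows only (0.0473) and without either spinal cord library (0.0497 each).

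Isl2, on chromosome 9 at 55538677 to 55547667, is the paralogue of Isl1 that marks somatic motor neurons. It was at 0.1 and 0.2 RPKM in wt and at 3.6 and 2.6 in EED-cKO. The gene was close to the bottom of the table's scale in every wt forebrain library and above 2 RPKM in both EED-cKO libraries. The mean rose 20.7-fold, from 0.15 to 3.1 RPKM (log2 difference 1.82 ± 0.21 SE, adjusted p = 0.000676). With steps of 0.1 RPKM in the table, the size of this ratio is uncertain.

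Lhx3, on chromosome 2 at 26200212 to 26208249, forms the motor neuron complex with Isl1 and is also a factor of the pituitary. It was listed at 0 in all 4 wt forebrain libraries of both ages, and EED-cKO forebrain had 0.8 and 3.4 RPKM. The 2 EED-cKO libraries differed from each other more for Lhx3 than for any other member relative to its mean. The gene was called (adjusted p = 0.0123), and the call was lost with only the 4 libraries compared (0.103) and without the first (0.0583) or the second (0.0714) E15.5 wt library. Reads were not stranded, and 188 exon bases of Lhx3 are shared with Gm27196, a gene on the opposite strand at 26206702 to 26209283, so reads of the pair cannot be told apart there.

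Lhx4, on chromosome 1 at 155698031 to 155751726, is the close paralogue of Lhx3, with roles in motor neurons, V2 interneurons and the pituitary. All 4 wt forebrain libraries listed it at 0, and the EED-cKO libraries at 2.8 and 2.3 RPKM. Unlike Lhx3, it was at a similar level in both EED-cKO libraries. Lhx4 rose (adjusted p = 3.36e-05), and no fold is given against a group listed at 0.

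The windows before a start of Lhx3 and of Lhx4 are shown as the members that were listed at 0 in wt forebrain. They are chr2:26206576-26206825 and chr1:155742028-155742277, both on the minus strand of GRCm38.p6 (RefSeq), with CG in capitals. The Lhx3 window overlaps no Lhx3 exon in GENCODE M21 but overlaps an exon of Gm27196. The Lhx4 window lies inside the Lhx4 gene bounds and overlaps no exon.

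Lhx3: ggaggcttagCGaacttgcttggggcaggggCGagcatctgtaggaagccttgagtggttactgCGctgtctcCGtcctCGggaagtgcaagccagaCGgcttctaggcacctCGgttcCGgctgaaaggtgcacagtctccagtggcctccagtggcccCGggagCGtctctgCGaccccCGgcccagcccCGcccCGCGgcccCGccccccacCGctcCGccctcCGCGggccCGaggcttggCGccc

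Lhx4: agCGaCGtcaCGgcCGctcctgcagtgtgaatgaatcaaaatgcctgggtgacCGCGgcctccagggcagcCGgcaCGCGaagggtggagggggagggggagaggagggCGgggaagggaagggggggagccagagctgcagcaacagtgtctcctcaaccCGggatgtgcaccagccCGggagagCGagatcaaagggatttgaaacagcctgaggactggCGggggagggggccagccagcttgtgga

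The Lhx3 window shown holds 22 CG and the Lhx4 window 14, counts reached or passed by 19.5% and 39.5% of the protein-coding windows. The other Lhx3 window holds 11 CG (47.5%). RefSeq gave 13 such windows for 9 of the 10 members, and 10 of the 13 held at least the median of 10 CG. Isl1 had the most (33) and Lhx8 and Lhx9 the fewest (4 each, a count reached by 71.0% of protein-coding windows). Of these, Lhx8 was not called in EED-cKO and Lhx9 rose. The homeodomain core TAATTA, which reads the same on both strands, was in 0 of the 13 windows and in 4.3% of the protein-coding windows. TATAAA on either strand was in 1 of the 13, the other Lhx3 window (chr2:26208250-26208499), and in 11.6% of the protein-coding windows. These matches describe letters only.

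**Figure D2:**
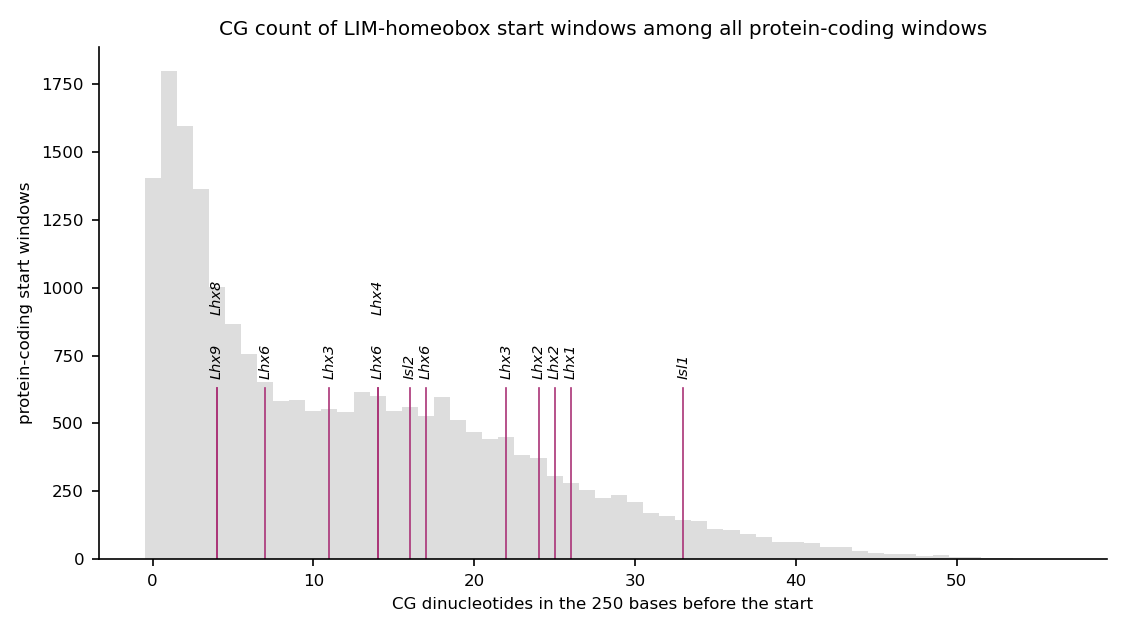
Number of CG dinucleotides in the 250 bases before a RefSeq start (x axis) against the number of protein-coding start windows with that count (grey bars, y axis); each purple line is 1 window of a named member. The members run from 4 CG (Lhx8 and Lhx9) to 33 (Isl1), with members that rose and members that fell in EED-cKO interleaved.

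Lhx1 and Lhx5 are paralogues that act in spinal interneurons, the diencephalon and Cajal-Retzius or cerebellar neurons. Lhx1, on chromosome 11 at 84517975 to 84525534, was at 7.3 and 5.3 RPKM in wt and at 24.8 and 22.2 in EED-cKO. It rose 3.73-fold (log2 difference 1.76 ± 0.16 SE, adjusted p = 0.000271). The long non-coding gene Lhx1os, which starts beside it at 84525660 on the opposite strand, was at 11.5 and 9.0 RPKM in wt and at 23.5 and 23.3 in EED-cKO (log2 difference 1.13 ± 0.14 SE, adjusted p = 0.000771). Both genes of this head-to-head pair were therefore higher, without overlap.

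Lhx5, on chromosome 5 at 120431886 to 120441457, was at 9.2 and 8.1 RPKM in wt and at 34.9 and 31.1 in EED-cKO. It rose 3.82-fold (log2 difference 1.82 ± 0.10 SE, adjusted p = 5.23e-05). It shares 69 exon bases with Gm27199 on the opposite strand, where unstranded reads cannot be assigned. The ratio of Lhx1 to Lhx5 RPKM was 0.793 and 0.654 in wt and 0.711 and 0.714 in EED-cKO (exact two-sided permutation p = 1), so the EED-cKO ratios lay within the wt range.

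Lhx9, on chromosome 1 at 138825186 to 138848839, is a paralogue of Lhx2 with roles in dorsal spinal interneurons and the thalamus. It was at 22.3 and 14.7 RPKM in wt and at 38.1 and 40.8 in EED-cKO. The wt libraries were spread widely, and both lay below the EED-cKO libraries. Lhx9 rose 2.13-fold (log2 difference 1.08 ± 0.19 SE, adjusted p = 0.00329), while its paralogue Lhx2 fell. The ratio of Lhx2 to Lhx9 RPKM was 6.15 and 10.1 in wt and 1.54 and 1.22 in EED-cKO, again with the smallest possible exact permutation p of 0.333 (two-sided). Tcf7l2, a thalamic gene noted here after its values were seen, was at 65.1 and 26.4 RPKM in wt and at 25.1 and 48.8 in EED-cKO. Its part in the Lhx9 result was not tested.

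The other LIM-homeobox genes, Lmx1a and Lmx1b, pattern the roof plate, midbrain dopaminergic neurons and the dorsal horn. Lmx1a was at 3.9 and 3.7 RPKM in wt and at 13.6 and 12.9 in EED-cKO (log2 difference 1.57 ± 0.091 SE, adjusted p = 6.28e-05). Lmx1b was at 1.7 and 1.1 RPKM in wt and at 8.6 and 9.2 in EED-cKO (log2 difference 2.06 ± 0.28 SE, adjusted p = 0.00135). Both rose with the spinal and motor members.

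Because Lhx3 and Lhx4 are also pituitary factors and Isl1 and Isl2 are also sensory ganglion factors, markers of those tissues were read beside them. In EED-cKO, 4 pituitary markers (Pou1f1, Cga, Pomc and Pitx1) summed to 16.9 RPKM in the first library and 145.2 in the second, against 5.6 to 7.4 in E15.5 wt forebrain, where 3 of the 4 (all but Pomc) were at 0. The hormone genes Pomc (9.0 and 103.6 RPKM) and Cga (0 and 25.6) and the pituitary factor Pou1f1 (0 and 4.6) were much higher in the second EED-cKO library. Pitx1 was at 7.9 and 11.4 RPKM. Lhx3 (0.8 and 3.4) was also higher in the second library, and Lhx4 (2.8 and 2.3) was not. Without that library 6 members were higher, in a fit that leaves 1 EED-cKO library and assumes it to vary like the other groups. The remaining library held Lhx3 at 0.8 RPKM, so this fit no longer contains the spread of Lhx3 within EED-cKO. In spinal cord, where Lhx3 was at 5.8 and 6.2 RPKM, the 4 pituitary markers summed to 2.5 to 3.2 RPKM with Pou1f1 and Pitx1 at 0. The part of pituitary RNA in the Lhx3 level of the second EED-cKO library was not tested.

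The 6 dorsal root ganglion markers summed to 9.9 to 12.2 RPKM in EED-cKO and 4 to 4.6 in E15.5 wt forebrain, where Tlx2 was at 0, and 1 of them (Pou4f1) rose. In spinal cord they summed to 373 RPKM in the first library and 273.1 in the second. Each of the 6 was higher in the first, as were Isl1 (107.6 and 81.8 RPKM) and Isl2 (25 and 15.7). Mesenchyme markers, 6 of 6 of them higher in EED-cKO, summed to 400.6 to 544.4 RPKM there and to 95.2 to 129.9 in wt. The 6 retina markers summed to 62.2 to 63.4 RPKM in EED-cKO against 26.9 to 31.2 in wt, and the 4 tested ones rose. Most of the EED-cKO sum was Six3 (33.1 and 34.2 RPKM) and Six6 (25.1 and 22.3). Crx (0.2 and 0.7 against 0.7 and 0.4 RPKM in wt) and Atoh7 (0.5 and 0.4 against 0.4 and 0.2) overlapped and were too low to be tested. The part of these tissues in the members' levels was not tested.

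**Figure D3:**
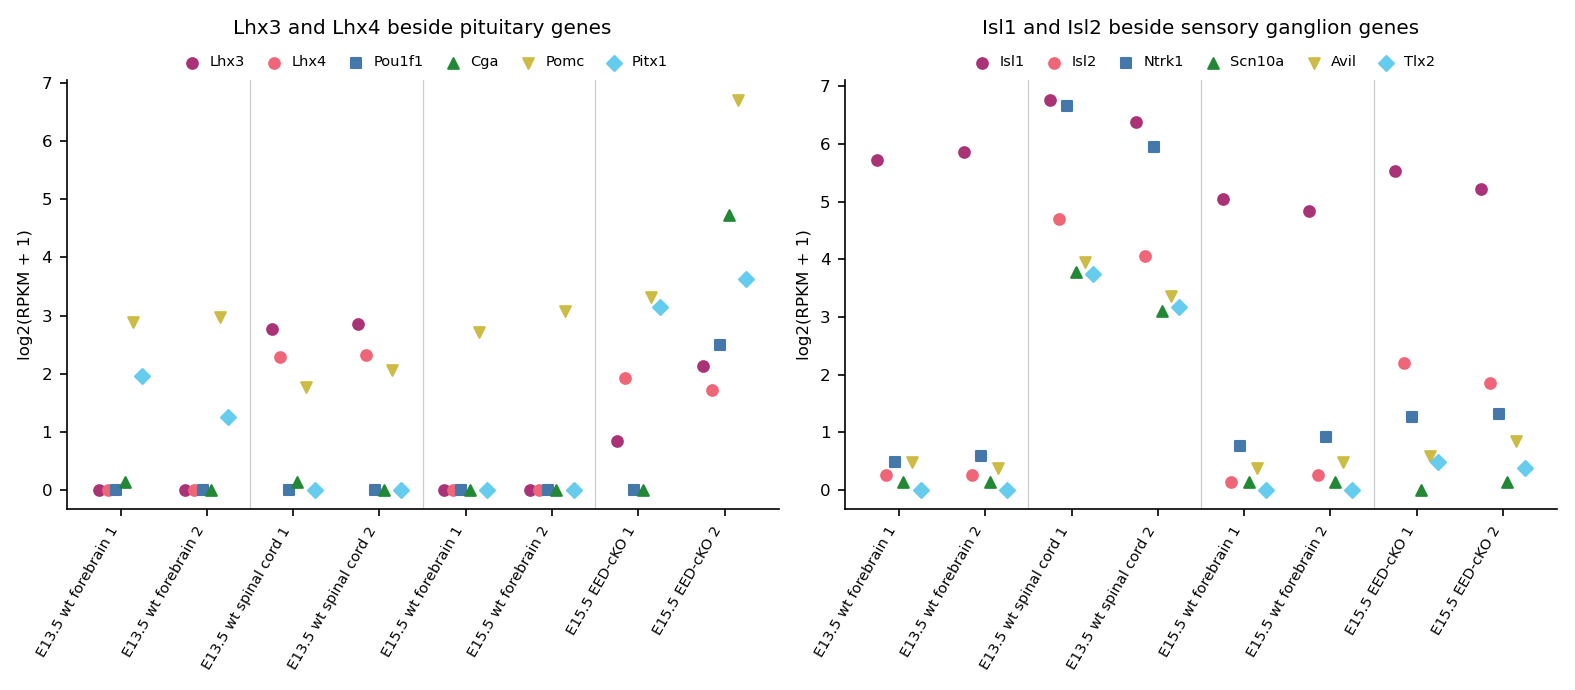
log2(RPKM + 1) in each of the 8 libraries (x axis) of Lhx3 and Lhx4 beside 4 pituitary genes (left) and of Isl1 and Isl2 beside 4 sensory ganglion genes (right), with 1 symbol per gene. Lhx3 and the 4 pituitary genes are higher in the second EED-cKO library while Lhx4 is not, and Isl1, Isl2 and the ganglion genes are higher in the first spinal cord library.

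Between wt spinal cord and wt forebrain at E13.5, all 10 members were called, 6 higher and 4 lower in spinal cord. Of all tested genes, 45.7% were called in this comparison, 21.8% higher and 23.9% lower, and the groups did not overlap for 76.3% (37% higher and 39.3% lower). Lhx3 passed the filter on low values only through spinal cord, so it had to differ. The forebrain members had a median log2 difference of -3.69, the spinal and motor members 2.31 (1.59 without Lhx3 and Lhx4) and all genes 0.00.

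Lhx2 was at 169.6 and 169.1 RPKM in E13.5 forebrain and at 4.8 and 6.1 in spinal cord, 31.1-fold lower (log2 difference -4.73 ± 0.11 SE, adjusted p = 5.66e-07). Lhx6 was at 21.8 and 21.6 against 0.8 and 0.8 RPKM, 27.1-fold lower (-3.66 ± 0.076 SE, adjusted p = 3.13e-07). Lhx8 was at 12.0 and 14.4 against 0.1 and 0.1 RPKM, 132-fold lower (-3.69 ± 0.13 SE, adjusted p = 3.18e-06). The 3 forebrain members thus differed by region in the direction of their name. Lhx9, placed by name with the spinal members, went the other way from its name: it was at 22.8 and 18.9 RPKM in forebrain and at 2.1 and 2.5 in spinal cord, 9.07-fold lower (-2.72 ± 0.19 SE, adjusted p = 4.41e-05). By level it stood with the forebrain members in these libraries.

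Isl2 differed most among the members that were higher in spinal cord. It was at 25 and 15.7 RPKM there and at 0.2 and 0.2 in forebrain, a 102-fold ratio (log2 difference 4.12 ± 0.21 SE, adjusted p = 1.46e-05). Lhx3 (5.8 and 6.2 RPKM, adjusted p = 0.000705) and Lhx4 (3.9 and 4.0, adjusted p = 5.36e-06) were listed at 0 in forebrain. All 3 of these motor neuron genes were at 0 or 0.2 RPKM in every E13.5 forebrain library.

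Lhx1, at 47.1 and 55.6 against 10.1 and 8.2 RPKM, was 5.61-fold higher in spinal cord (log2 difference 2.37 ± 0.16 SE, adjusted p = 4.23e-05). Lhx5, at 38.4 and 39.4 against 13.2 and 11.3, was 3.18-fold higher (1.59 ± 0.10 SE, adjusted p = 3.25e-05). Isl1, at 107.6 and 81.8 against 51.4 and 56.7, was 1.75-fold higher (0.79 ± 0.16 SE, adjusted p = 0.00615). Isl1 therefore showed the smallest regional difference of the 10, with over 50 RPKM in both tissues.

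**Figure D4:**
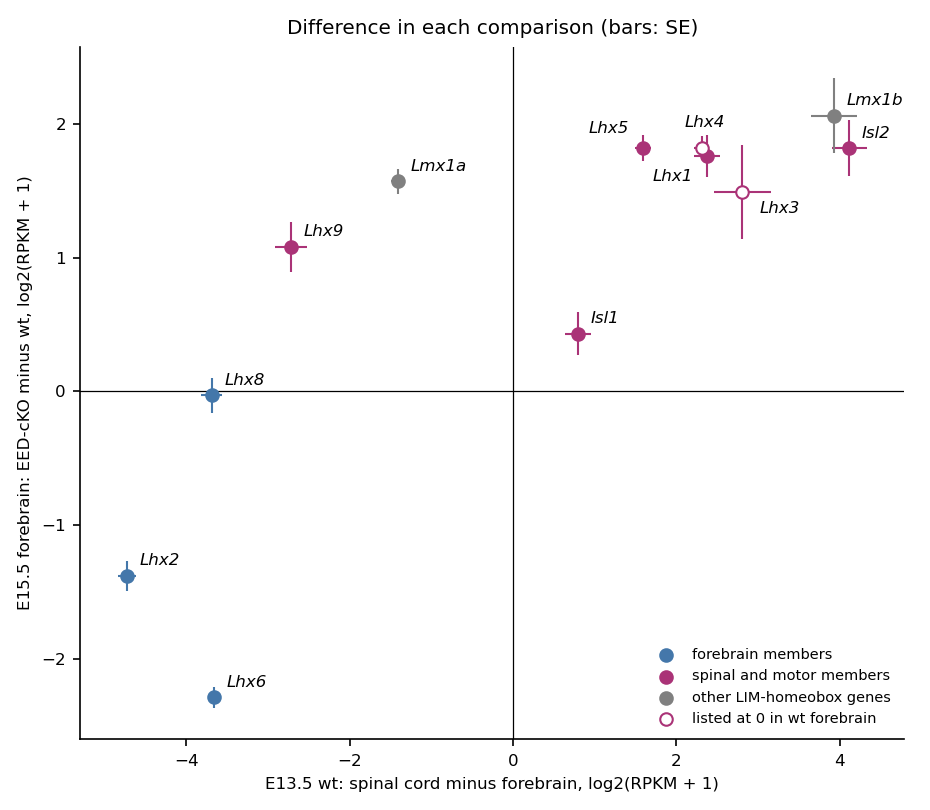
Log2(RPKM + 1) difference of each gene between spinal cord and forebrain at E13.5 (x axis) and between EED-cKO and wt forebrain at E15.5 (y axis), with SE bars; blue points are forebrain members, purple points spinal and motor members, grey points Lmx1a and Lmx1b, and open points genes listed at 0 in wt forebrain. Lhx9 and Lmx1a lie at the upper left, lower in spinal cord and higher in EED-cKO, and Lhx8 lies at the left close to 0 on the y axis.

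The 2 comparisons share no library, although both use the spread estimated from all 8, and their values are set side by side. Isl2, Lhx1, Lhx3, Lhx4 and Lhx5 were higher both in spinal cord than in forebrain and in EED-cKO than in wt, and Lhx2 and Lhx6 were lower in both. Lhx9 and Lmx1a were lower in spinal cord and higher in EED-cKO. Lhx8 was 132-fold lower in spinal cord and overlapped between EED-cKO and wt. The levels reached in EED-cKO also differed among the genes: Lhx5 was at 31.1 to 34.9 RPKM there and at 38.4 to 39.4 in E13.5 spinal cord, while Isl2 was at 2.6 to 3.6 against 15.7 to 25. These last values come from different ages and differently scaled libraries, and no test was made across them.

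The order of the levels per length changed with group. In E15.5 wt forebrain it ran from Lhx2 through Isl1, Lhx9, Lhx6, Lhx8, Lhx5 and Lhx1 to Isl2, with Lhx3 and Lhx4 at 0. The ranges of Lhx9 and Lhx6 overlapped there. In EED-cKO the order was Lhx2, Isl1, Lhx9, Lhx5, Lhx1, Lhx8, Isl2, Lhx6, Lhx4 and Lhx3, with the ranges of Isl1 and Lhx9 overlapping and the last 4 overlapping in turn. Lhx6 thus was the fourth in wt and the eighth in EED-cKO. In E13.5 spinal cord Isl1, Lhx1, Lhx5 and Isl2 led without overlap, followed by Lhx3, Lhx2, Lhx4, Lhx9, Lhx6 and Lhx8, of which only Lhx3 and Lhx2 overlapped.

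Likeness of pattern was taken as the root mean square difference of log2(RPKM + 1) over the 8 libraries after each gene's own mean was removed, so a smaller value is a closer pattern. The measure spans both ages, whose values are scaled differently, and its scale understates the change of low genes. Among the members the closest were Lhx4 and Lhx5 (0.27) and Lhx1 and Lhx4 (0.30), and the farthest were Isl2 and Lhx2 (3.59). Lhx4 was listed at 0 in every wt forebrain library, and Lhx1 and Lhx5 were not. Their closeness is therefore one of log2(RPKM + 1) differences and not of fold changes. The paralogues Lhx1 and Lhx5 (0.36) and Lhx3 and Lhx4 (0.48) were close. Lhx6 and Lhx8 (1.08), Lhx2 and Lhx9 (1.15) and Isl1 and Isl2 (1.29) were not. Among all tested genes, patterns near that of Lhx2 were those of Dlx1 (0.35) and Dlx2 (0.39), homeobox genes of the ganglionic eminences. Nearest to Lhx6 were Tfap2c (0.40) and the Dlx6 antisense transcript Dlx6os1 (0.42). Nearest to Lhx8 were Vax1 (0.20), a ventral forebrain homeobox gene, Dlx6 (0.28) and Six3os1 (0.33). Isl2 was nearest to the glycine transporter gene Slc6a5 (0.20), Hoxa3 (0.30) and Skor2 (0.31), and Lhx3 to C1qtnf3 (0.32), Nkx1-1 (0.35) and Ngfr (0.38). Lhx4 was nearest to Runx3 (0.18), Ccer2 (0.18) and Nkx6-1 (0.19), and Lhx5 to Flnc (0.16), Runx3 (0.22) and Efcc1 (0.25). Isl1 was nearest to Dysf (0.15), Epb41l3 (0.17) and Myt1l (0.19), Lhx1 to Daam2 (0.24), Foxd3 (0.30) and Msx3 (0.30), and Lhx9 to Trp73 (0.22), Krt18 (0.24) and Car14 (0.28). For Slc6a5, Hoxa3, C1qtnf3, Nkx1-1, Ngfr, Nkx6-1, Krt18 and Car14, the E15.5 values rest on the assignment of columns to gene names described below.

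The cofactors through which LIM-homeodomain proteins act were measured from a list of 10. In EED-cKO 5 fell, 1 rose (Lmo2) and 4 were not called (Ssbp3, Ssbp4, Rlim and Lmo1), with a median log2 difference of -0.39 against 0.08 for all genes. The 6 called of 10 stand beside 46.9% called among all genes. Ldb1, the obligate adaptor, was at 191.7 and 204.1 RPKM in wt and at 132.1 and 123.8 in EED-cKO, and fell by 0.63 on the log2 scale (± 0.062 SE, adjusted p = 0.000366). Its paralogue Ldb2 was at 48.6 and 43.6 against 24.8 and 24.8 RPKM and fell by 0.87 (± 0.15 SE, adjusted p = 0.00339). The LDB1 partner Ssbp2 was at 124.4 and 129.4 against 71.7 and 63.9 RPKM and fell by 0.90 (± 0.069 SE, adjusted p = 0.000153). The LIM-only genes, whose products compete with LIM-homeodomain proteins for LDB1, were not uniform. Lmo3 (74.5 and 83.0 against 32.9 and 32.9 RPKM) fell by 1.23 (± 0.13 SE, adjusted p = 0.000429), Lmo4 (208.6 and 243.4 against 120.5 and 112.7) fell by 0.95 (± 0.082 SE, adjusted p = 0.000239), and Lmo2 rose by 0.23 (± 0.075 SE, adjusted p = 0.0412). Between spinal cord and forebrain at E13.5, 1 of the 10 was higher (Lmo2, 0.82 ± 0.075 SE), 4 were lower and 5 were not called, a share of calls near the 45.7% of all genes. Lmo1 differed most, at 33.2 and 32.8 RPKM in forebrain and 6.6 and 5.5 in spinal cord (log2 difference -2.27 ± 0.11 SE, adjusted p = 1.11e-05).

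Gene lists for the cell types that use LIM-homeobox codes were read beside the members, as counts of tested genes, to be set against 30.2% higher and 16.7% lower among all tested genes in EED-cKO. Of 23 motor neuron genes, 15 rose, 2 fell and 6 were not called in EED-cKO, with a median log2 difference of 0.89. Of the 23, 1 passed the filter on low values only through EED-cKO and so could only rise: Nkx2-9, at 1.0 and 1.0 RPKM there, named after its values were seen. Mnx1, a homeobox gene that consolidates motor neuron identity, had 0 RPKM in either wt library and reached 6.3 and 5.2 RPKM in the EED-cKO pair (adjusted p = 1.45e-05). Nkx2-2 rose by 2.09 (± 0.11 SE) and Gfra1 by 1.70 (± 0.095 SE), and the proneural gene Neurog2 fell by 2.21 (± 0.099 SE). The list is not specific to motor neurons. It also holds Pou4f1, read above as a dorsal root ganglion marker. Nkx2-2 was not called between the E13.5 tissues, at 4.9 and 4.0 RPKM in spinal cord and 6.2 and 5.3 in forebrain. Chat, the enzyme that makes acetylcholine, was at 0.1 and 0.1 RPKM in wt and at 0.4 and 0.2 in EED-cKO and was not called (adjusted p = 0.0752). Slc18a3 and Slc5a7, the other cholinergic genes of the list, rose from low levels. Slc18a3 was at 1.2 and 1.0 RPKM in wt and at 2.6 and 2.6 in EED-cKO (adjusted p = 0.000552). Slc5a7 was at 0.8 and 0.4 RPKM in wt and at 1.9 and 2.0 in EED-cKO (adjusted p = 0.00179). Of 10 V2 interneuron genes, 6 rose, 2 fell and 2 were not called (median 1.14), led by Tal1 (4.09 ± 0.27 SE), which is also a blood and endothelial gene, and by Gata3 (3.39 ± 0.53 SE).

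Of 15 dorsal spinal interneuron genes, 13 rose and 2 fell (median 1.81), among them Pax2 (0 and 0.1 RPKM in wt, 20.0 and 16.8 in EED-cKO), Olig3 and Pax8. Of 10 ventral spinal interneuron genes, 8 rose, 1 fell and 1 was not called (median 1.19), En1 by 2.80 (± 0.17 SE). Of 18 diencephalon and thalamus genes, 14 rose, 2 fell and 2 were not called (median 1.47). The forebrain lists went the other way: of 24 ganglionic eminence interneuron genes 4 rose, 14 fell and 6 were not called (median -0.55), and of 20 cortical progenitor and patterning genes 2 rose, 13 fell and 5 were not called (median -1). Dlx1 fell by 1.56 (± 0.17 SE), while Zic1 rose by 1.68 (± 0.12 SE). Some genes stand in more than 1 list.

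In the regional comparison, where 21.8% of all tested genes were higher and 23.9% lower in spinal cord, 16 of the 23 motor neuron genes were higher in spinal cord and 4 lower (median 1.02), 11 of 15 dorsal interneuron genes were higher and 2 lower (3.12), and 7 of 10 ventral interneuron genes were higher and 2 lower (1.28). Of the 10 V2 interneuron genes 1 was higher, 4 were lower and 5 were not called (-0.03). In each of these 4 lists, 1 gene passed the filter only through spinal cord and so could only be higher. Of the 18 diencephalon and thalamus genes 1 was higher and 12 were lower in spinal cord (-1.12), and all 20 cortical genes were lower (-2.15). The diencephalon and thalamus genes were thus mostly lower in spinal cord and mostly higher in EED-cKO, the same pair of directions as Lhx9 and Lmx1a. The 24 ganglionic eminence genes were split, with 9 higher and 11 lower in spinal cord (0.08).

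**Figure D5:**
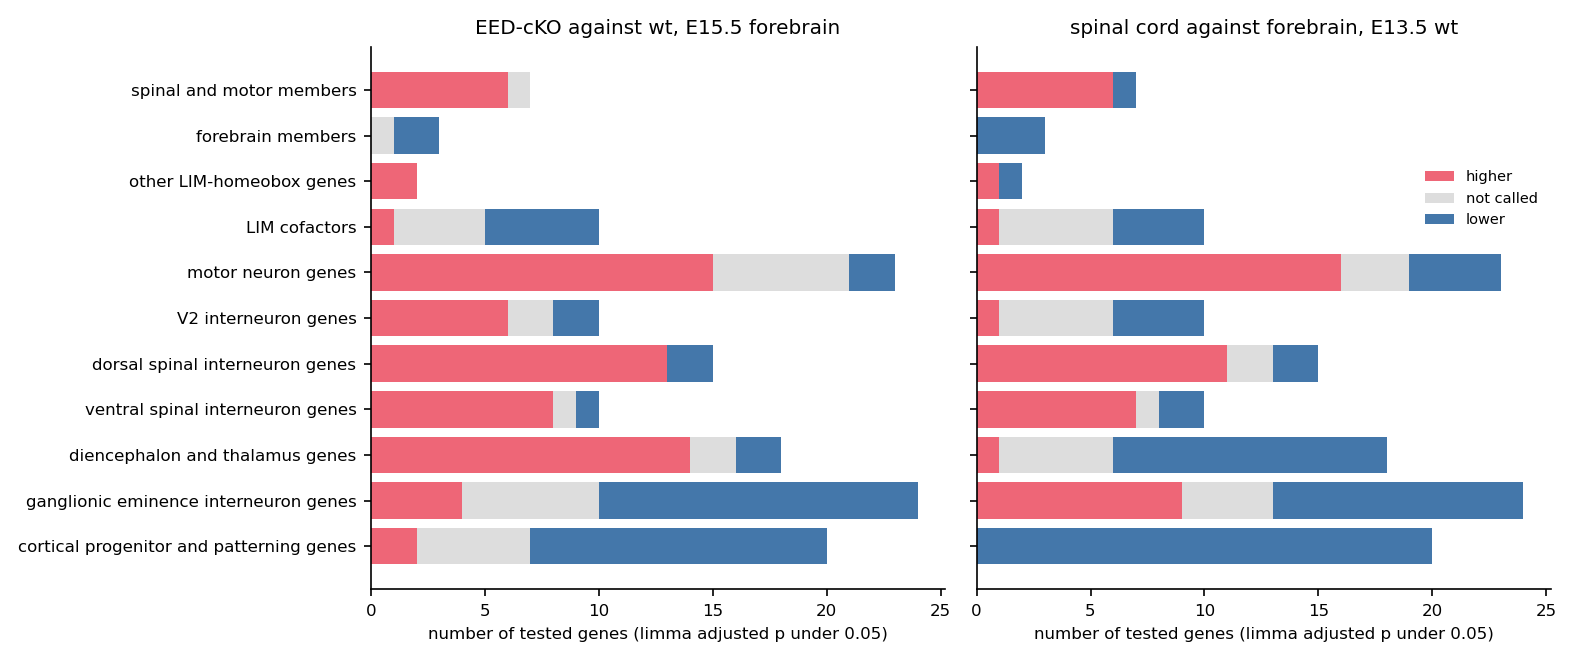
Number of tested genes in each list (x axis) that were called higher (red), not called (grey) or called lower (blue) in EED-cKO against wt forebrain at E15.5 (left) and in spinal cord against forebrain at E13.5 (right). The diencephalon and thalamus list has 14 genes higher in EED-cKO and 12 lower in spinal cord, and the cortical list is mostly lower in both.

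Between E13.5 and E15.5 wt forebrain, 4 members were lower at E15.5 (Isl1, Lhx1, Lhx5 and Lhx6) and 0 were higher by the limma test. No member had a higher mean at E15.5, so 0 were higher at an unadjusted p under 0.05 as well. Of all tested genes 77.1% were called, 62.5% higher and 14.5% lower, and the groups did not overlap for 86% (68.2% higher and 17.8% lower). The median of all genes was 0.52, and age cannot be told apart from the different scale of the E15.5 values. Isl1 fell most among the members, from 51.4 and 56.7 to 32.0 and 27.5 RPKM (log2 difference -0.84 ± 0.16 SE, adjusted p = 0.00196). Lhx5 (-0.46 ± 0.10 SE, adjusted p = 0.00431), Lhx1 (-0.48 ± 0.16 SE, adjusted p = 0.0262) and Lhx6 (-0.33 ± 0.076 SE, adjusted p = 0.00558) fell by less. The Lhx1 call was lost in 6 of 20 alternatives: without the filter (adjusted p = 0.0696), with the 4 libraries alone (0.0992), without the first E13.5 forebrain library (0.157), without the second E15.5 wt library (0.16), and without the first (0.0533) or second (0.0532) EED-cKO library. Over all 20 its adjusted p ran from 0.000476 to 0.16. Lhx8, at 12.0 and 14.4 against 12.1 and 14.0 RPKM, overlapped. After median-ratio scaling, which brought the median of all genes to 0.00, 7 members were lower at E15.5, and the same number was found after quantile normalization.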

How the data were processed

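The authors deposited 1 table for the 8 libraries, in RPKM (reads per kilobase of gene, relative to the mapped reads), in steps of 0.1 RPKM. Per the labels' protocols, total RNA was made into unstranded libraries and read as single ends of 50 bases, with a target depth of about 50M reads. The submitters' processing notes name the builds mm9 and GRCm38, and the aligner and counter are not given in the sources used here. In 36333 rows, the gene names did not match the 4 E15.5 columns in part of the table, so these columns were assigned to the names in alphabetical order, case and hyphens ignored. All 10 members keep their row either way, and the choice touches only the background and other named genes. For 16 duplicated rows the one with the highest mean was kept.

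Groups came from the labels. The 17022 genes that reached 1 RPKM in 2 or more libraries were tested on log2(RPKM + 1) with limma 3.58.1 in R 4.3.3: 4 group means over all 8 libraries, 4 residual degrees of freedom, eBayes with trend, two-sided, Benjamini-Hochberg adjustment, called under 0.05. The test was tested on simulated data. The members and the 16 gene lists (179 entries, all matched) were chosen with earlier results of these data known. The text names every member, Eed, Lmx1a, Lmx1b, every cofactor, up to 4 called genes a list by size of change, and the 3 most alike genes per member. Alternatives were pseudocounts, filters, scalings, row orders, the 4 libraries alone, a replicate block, no trend, and each library left out; those using unmoved rows only and a crossed block were added after seeing the data. Lhx1os, Tcf7l2, Chat, Slc18a3, Slc5a7 and the marker genes of the label check and beside the members were named outside that rule. Some genes that the rule or the marker lists cover are not reported here. Promoter windows and positions are RefSeq's on GRCm38.p6, matched by symbol (Lhx5 had no window). Figures were drawn with matplotlib 3.10.9 under Python 3.11.15 (pandas 2.3.3, numpy 2.4.6).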

Additional observations from a re-analysis of the deposited data

How the results depend on the processing

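With 2 libraries a group, no exact test of a single gene could pass 0.05, and calls rest on the spread pooled over groups. The groups did not share 1 spread. The median standard deviation of log2(RPKM + 1) over genes was 0.117 in E15.5 wt forebrain and 0.049 to 0.058 in the other groups. The pooled spread can therefore understate the error of the knockout and age comparisons, which both use E15.5 wt forebrain. In the regional comparison, the direction and call of every member were the same in all 199 of 199 combinations of member and alternative; in the knockout comparison this held for 200 of 209, and in the age comparison for 143 of 160. Lhx3 was not tested under the filter in 4 libraries. The Lhx8 difference between EED-cKO and wt, not called in any setting, ran from -0.15 to 0.09 with 1 library left out, turning positive without the second E15.5 wt library (0.06) or the second EED-cKO library (0.09). Between ages, Lhx8 ran from -0.14 to 0.11, turning to 0.11 without the second E13.5 forebrain library and 0.08 without the first E15.5 wt library, and Lhx9 to 0.10 without the second E15.5 wt library. Lmx1a turned to -0.38 under median-ratio scaling and -0.29 under quantile normalization, and Lmx1b to -0.36 and -0.42, and, within a range of -0.47 to 0.49 with 1 library left out, to -0.47 without the second E13.5 forebrain library and to -0.17 without the first E15.5 wt library. Genes called in EED-cKO numbered 7987 (5149 higher, 2838 lower), against 4777 (3393 and 1384) with the 4 libraries alone, 4929 (3126 and 1803) with unmoved rows only, and 4314 lower after quantile normalization. Leaving out 1 library gave 4922 to 9606 called, 3440 to 6054 higher, 1482 to 3552 lower, 5 to 7 members higher and 2 lower; the 4922 came without the second EED-cKO library, and lower genes were 1677 without the first and 1482 without the second. Regional calls numbered 7784 (3714 higher, 4070 lower), 4792 (2228 and 2564) with unmoved rows only, and 5205 to 9320 (2501 to 4422 and 2704 to 4898) with 1 library left out, the 2704 without the second E13.5 forebrain library; 6 members higher and 4 lower held in each. Between ages, 13117 genes were called (10646 higher, 2471 lower). Higher and lower were 6132 and 5955 under median-ratio scaling and 5979 and 6049 under quantile normalization, with 7 members lower under each; 4856 were lower in the deposited row order, and 7209 were called (5797 and 1412) with unmoved rows only. Of the age calls 81.2% were higher, against 50.7% and 49.7% under those scalings and 69.3% in the deposited order. Leaving out 1 library gave 11768 to 13010 called, 9781 to 10808 higher, 1987 to 2743 lower and 3 to 5 members lower. The cause of these shifts was not tested. The deviations of libraries with the same number from their group means correlated across genes at r = 0.211 between the E13.5 tissues, -0.124 between E15.5 wt and EED-cKO, and -0.006 to 0.048 between the other groups, and with 2 numbers a group and no label of pairing they were not taken as pairs. With a replicate block, 7608 genes were called in EED-cKO, with 7 members higher (Isl1 added) and 2 lower, and 7466 between the E13.5 tissues, with 6 members higher and 4 lower; a crossed pairing in EED-cKO gave 8013 genes, with 6 and 2 members.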
